A study of Mus musculus with 7 samples.

Results

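The 6 genes described here are Hsd3b7, Akr1d1, Slc27a2, Amacr, Slc27a5 and Baat. They encode some, not all, of the enzymes of bile acid synthesis that are not cytochromes P450. Their products act on the steroid ring, on the side chain or in conjugation. They were chosen by name, by a rule that uses no measured value although earlier results of these data were known, as 6 of the 18193 genes that the array annotation gives a single symbol, and all of their probe sets were taken, which were 8 of 45101. Akr1d1 and Baat had 2 probe sets each and the other 4 genes had 1, and no filter on low values was applied, so all members were tested.

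RNA was measured on Affymetrix mouse genome arrays in induced hepatic stem cells (iHepSCs), primary hepatocytes (pHep) and mouse embryonic fibroblasts (MEF), all from C57BL/6J mice (C57BL/6 in the sample labels), and levels are log2 values after Robust Multiarray Analysis (RMA), in which a difference of 1 is a change of 2-fold. iHepSCs were MEF transduced with lentivirus that drives Oct4 and Hnf4α from an SFFV promoter, were grown from picked clones in hepatocyte medium on collagen, and were measured on 1 array at passage 20 (P20) and 1 at passage 3 (P3). The study's detailed work used the clone iHepSC-C3, while the labels of these arrays name no clone. pHep were isolated from 6-week-old male mice by collagenase perfusion of the liver and kept for a few hours in culture (1 array). The MEF, on 4 arrays, came from embryos whose head and internal organs had been removed. They were untransduced and grown in fibroblast medium, so the transduction and the medium cannot be told apart in iHepSCs against MEF. In pHep against MEF, the tissue, the age of the donors and the culture differ together and cannot be told apart. Nothing in the labels says that arrays of 1 group came from separate cultures, so the p-values measure the spread between these arrays, which may be technical, and the pHep array is assumed to vary like the others.

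The arrays had medians of 6.28 to 6.33 and close to equal distributions. MEF replicate 1 stood apart. It correlated with the other MEF arrays at r = 0.960 to 0.961 over all probe sets, against 0.997 among those 3. Several results that rest on it are therefore given with and without it. Hnf4a, the transduced hepatocyte factor, was at 11.88 (P20) and 12.07 (P3) in iHepSCs and 13.42 in pHep, against 7.39 to 7.51 in MEF, whereas the probe set of Pou5f1 (Oct4) differed by 0.06 between iHepSCs and MEF (adjusted p = 0.782, limma). From qPCR of the transgene transcripts, the study reports that both transduced factors were silenced at P3 and P20. Against MEF, 4 of 8 hepatocyte markers (Alb, Ttr, Apoa1 and Apob) were higher in iHepSCs and 7 in pHep, while all 8 fibroblast markers were lower in iHepSCs and 6 of them in pHep.

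In the liver, bile acids are made from cholesterol. The sterol ring is hydroxylated and reduced in the cytosol and endoplasmic reticulum, the side chain is then activated with coenzyme A and shortened in peroxisomes, and the product is joined to taurine or glycine before it is secreted into bile. Hsd3b7 oxidises the 3β-hydroxyl group of the ring and Akr1d1 reduces its double bond. Slc27a2 activates the side chain, and Amacr turns it into the stereoisomer that peroxisomal oxidation accepts. Slc27a5 activates bile acids returning to the liver, and Baat carries out conjugation with the amino acid.

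Promoters of 3 of the 6 genes, from 250 bases before to 50 bases after the start of transcription, were read from RefSeq (GRCm38.p6). Hsd3b7, Akr1d1 and Slc27a2 were matched there, and Amacr, Slc27a5 and Baat were not. They are shown so that the sequence before Hsd3b7, which was high in iHepSCs and pHep alike, stands beside those before Slc27a2 and Akr1d1, which were high in pHep only. Capitals mark matches to the motifs searched, each of which stands on the opposite strand and is therefore read here as its reverse complement.
Hsd3b7, chr7:127800359-127800658, + strand: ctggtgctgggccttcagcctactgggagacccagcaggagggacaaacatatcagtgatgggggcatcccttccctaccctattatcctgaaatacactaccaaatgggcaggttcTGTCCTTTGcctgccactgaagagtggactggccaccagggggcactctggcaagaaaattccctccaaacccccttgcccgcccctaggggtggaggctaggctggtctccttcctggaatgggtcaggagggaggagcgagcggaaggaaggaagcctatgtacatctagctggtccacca
Akr1d1, chr6:37529923-37530222, + strand: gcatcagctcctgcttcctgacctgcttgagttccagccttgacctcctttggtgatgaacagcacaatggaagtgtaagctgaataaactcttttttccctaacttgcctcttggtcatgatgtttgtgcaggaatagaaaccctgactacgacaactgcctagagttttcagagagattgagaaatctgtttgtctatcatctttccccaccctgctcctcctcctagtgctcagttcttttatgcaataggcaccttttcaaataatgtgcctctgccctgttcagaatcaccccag
Slc27a2, chr2:126552774-126553073, + strand: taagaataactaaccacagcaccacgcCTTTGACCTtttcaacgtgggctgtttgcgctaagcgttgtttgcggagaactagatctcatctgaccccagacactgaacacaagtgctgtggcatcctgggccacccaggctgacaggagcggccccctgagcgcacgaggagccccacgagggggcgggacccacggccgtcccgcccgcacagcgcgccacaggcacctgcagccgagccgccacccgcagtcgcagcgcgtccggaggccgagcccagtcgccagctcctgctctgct
Both strands were searched for AGGTCAAAG and CAAAGGNCA, 2 overlapping stretches of the direct repeat that HNF4 and related nuclear receptors recognise, for the HNF4 motif CAAAGTCCA and for TATAAA. The Hsd3b7 promoter held CAAAGGNCA from 133 to 125 bases before the start, a motif found in 1.93% of 32851 mouse promoters of this length. The Slc27a2 promoter held AGGTCAAAG from 223 to 215 bases before the start, which was found in 0.426% of them. The Akr1d1 promoter held none of the motifs, and none of the 3 held CAAAGTCCA (0.475% of all promoters) or TATAAA (13.6%). These matches are of letters only.

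Of the 2 ring enzymes, Hsd3b7 was the member higher than in MEF in both iHepSCs and pHep. Its level was 11.01 (P20) and 11.08 (P3) in iHepSCs and 11.08 in pHep, against 8.48, 7.10, 7.41 and 7.12 in MEF replicates 1 to 4. Both iHepSC arrays and the pHep array lay above every MEF array, with no overlap. Hsd3b7 averaged 11.04 ± 0.05 in iHepSCs (SD, n = 2) and 7.53 ± 0.65 in MEF (SD, n = 4). The difference of 3.52 (SE 0.40), or 11.4-fold, was significant (limma, adjusted p = 0.00181), as was that of pHep from MEF (3.55, SE 0.52, 11.7-fold, adjusted p = 0.00458). Between iHepSCs and pHep, Hsd3b7 differed by -0.04, with a 95% confidence interval of 0.37-fold to 2.57-fold (adjusted p = 0.981), an interval that holds changes of more than 2-fold in either direction. Without MEF replicate 1 the difference of iHepSCs from MEF was 3.83 (adjusted p = 3.14e-07) and the interval between iHepSCs and pHep narrowed to -0.40 to 0.33 on the log2 scale. By the methods' t-test the difference of pHep from MEF had a Benjamini-Hochberg adjusted p of 0.0859.

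Akr1d1, which carries out the step after Hsd3b7, was higher only on the pHep array. Its probe set with the higher mean, 1425771_at, was at 5.73 (P20) and 5.88 (P3) in iHepSCs and 7.69 in pHep, against 5.82, 5.66, 5.56 and 5.38 in MEF. The P20 array lay inside the MEF range, the P3 array just above it and the pHep array well above both. Its other probe set, 1455100_at, was at 3.61 and 3.63 in iHepSCs and 7.97 in pHep, against 3.52 to 3.69 in MEF, which is near the lowest value on any array (3.01). Akr1d1 differed by 0.20 (95% confidence interval -0.15 to 0.55, adjusted p = 0.384) and 0.01 (-0.21 to 0.24, adjusted p = 0.944) between iHepSCs and MEF, and was higher in pHep than in MEF by 2.09 (SE 0.19, adjusted p = 0.000644) and 4.36 (SE 0.12, adjusted p = 9.35e-06). It was lower in iHepSCs than in pHep by both probe sets, with differences of -1.89 (adjusted p = 0.00203) and -4.35 (adjusted p = 2.07e-05). The probe sets thus gave the same direction. The leading one, whose MEF levels exceeded 33.4% to 42% of probe sets, gave 4.25-fold between pHep and MEF. No fold is given for the other, whose MEF levels exceeded only 1.12% to 2.6% of probe sets.

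**Figure D1:**
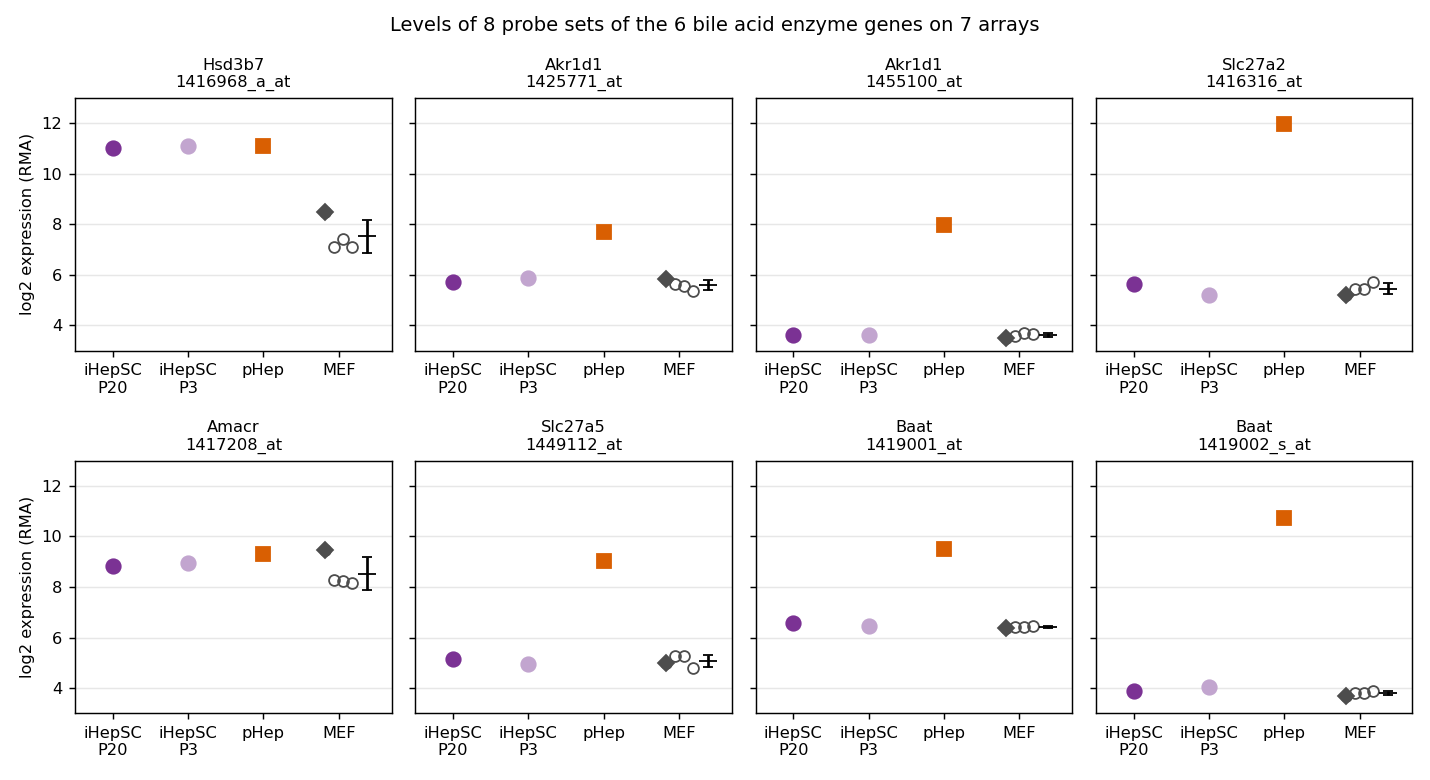
RMA log2 expression (y axis) of the 8 probe sets in iHepSCs at P20 and P3, in pHep and in MEF, with 1 point per array. The filled diamond is MEF replicate 1, open circles are MEF replicates 2 to 4, and the bar is the MEF mean ± SD (n = 4). Hsd3b7 was close to 11 in iHepSCs and pHep, whereas Slc27a2, Slc27a5, Baat and Akr1d1 stood out on the pHep array.

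Slc27a2, the very long chain acyl-CoA synthetase that is also a fatty acid transporter, showed the most unequal levels of the side chain enzymes. Its level was 5.64 (P20) and 5.22 (P3) in iHepSCs and 11.97 in pHep, against 5.19, 5.45, 5.44 and 5.73 in MEF. Both iHepSC arrays fell within the range of the MEF arrays, and the pHep array lay far above it. The MEF and iHepSC levels exceeded 30.1% to 40.3% of probe sets, so folds against them rest on low values. Slc27a2 differed by -0.02 between iHepSCs and MEF, with an interval of 0.71-fold to 1.35-fold (adjusted p = 0.944). It was 91.7-fold higher in pHep than in MEF (6.52, SE 0.24, adjusted p = 2.59e-05), a rise exceeded by 0.282% of all probe sets, and 93.3-fold lower in iHepSCs than in pHep (-6.54, SE 0.27, adjusted p = 5.21e-05).

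Amacr, the racemase of branched-chain acyl-CoA esters, was measured well above the array medians in all groups, and its comparisons turned on 1 fibroblast array. Its level was 8.84 (P20) and 8.94 (P3) in iHepSCs and 9.29 in pHep, against 9.48, 8.26, 8.24 and 8.14 in MEF. MEF replicate 1 was the highest of all 7 arrays, while MEF replicates 2 to 4 were the lowest 3. With all arrays, Amacr differed by 0.36 between iHepSCs and MEF (95% confidence interval -0.61 to 1.33, adjusted p = 0.578), by 0.76 between pHep and MEF (-0.49 to 2.01, adjusted p = 0.309) and by -0.40 between iHepSCs and pHep (adjusted p = 0.712). Without MEF replicate 1, Amacr was higher in iHepSCs than in MEF by 0.68 (adjusted p = 0.000459), higher in pHep than in MEF by 1.08 (adjusted p = 0.000135) and lower in iHepSCs than in pHep, at -0.40 (adjusted p = 0.0329). That array stood 1.27 above the mean of the other MEF arrays in Amacr and likewise 1.27 above it in Hsd3b7. In the other 6 probe sets of the members it lay between -0.35 and 0.29 of that mean.

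**Figure D2:**
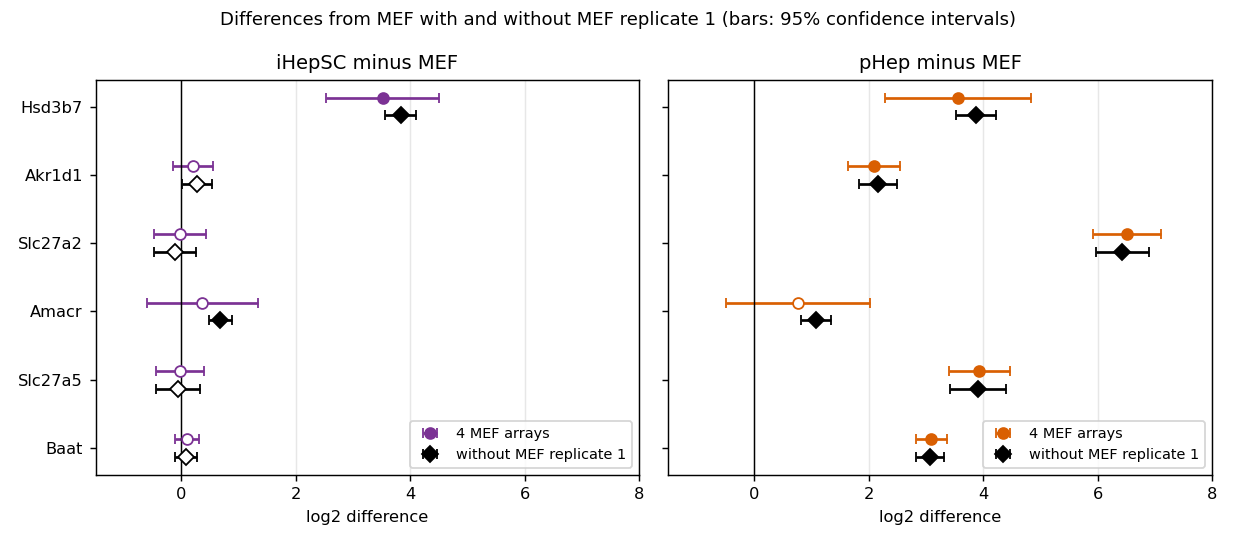
Log2 differences (x axis) of iHepSC minus MEF and pHep minus MEF for the leading probe set of each gene, with 4 MEF arrays (coloured) and without MEF replicate 1 (black). Bars are 95% confidence intervals and filled points have an adjusted p under 0.05. Amacr changed its call, from an interval of -0.61 to 1.33 to a difference of 0.68 in iHepSCs, and the interval of Hsd3b7 narrowed.

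Both enzymes of conjugation were higher on the pHep array only. Slc27a5, the bile acid-CoA ligase, was at 5.14 (P20) and 4.97 (P3) in iHepSCs and 9.01 in pHep, against 4.99, 5.27, 5.27 and 4.78 in MEF. The iHepSC arrays lay inside the MEF range. These levels exceeded 21.6% to 31.4% of probe sets, so here too the folds rest on low values. Slc27a5 differed by -0.02 between iHepSCs and MEF, with an interval of 0.74-fold to 1.31-fold (adjusted p = 0.941). It was 15.3-fold higher in pHep than in MEF (3.93, SE 0.22, adjusted p = 0.000105) and 15.5-fold lower in iHepSCs than in pHep (-3.96, SE 0.24, adjusted p = 0.000223).

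Baat, the amino acid N-acyltransferase that carries out the last step, was read by 2 probe sets. The dimmer of them, 1419002_s_at, was at 3.89 (P20) and 4.04 (P3) in iHepSCs and 10.73 in pHep, against 3.69, 3.82, 3.79 and 3.88 in MEF. Both iHepSC arrays lay just above the highest MEF array, by less than the range of the MEF arrays (0.19). The probe set with the higher mean, 1419001_at, was at 6.56 and 6.46 in iHepSCs and 9.51 in pHep, against 6.37, 6.42, 6.42 and 6.47 in MEF, so that the P3 array lay inside the MEF range and the P20 array above it. Baat differed by 0.17 (95% confidence interval -0.07 to 0.41, adjusted p = 0.285) and 0.09 (-0.12 to 0.30, adjusted p = 0.516) between iHepSCs and MEF on these probe sets. It was higher in pHep than in MEF by 6.94 (SE 0.13, adjusted p = 4.9e-06) and 3.09 (SE 0.11, adjusted p = 2.31e-05), and lower in iHepSCs than in pHep, at -6.76 (adjusted p = 7.4e-06) and -3.00 (adjusted p = 5.21e-05). The leading probe set gave 8.5-fold between pHep and MEF. No fold is given for 1419002_s_at, whose MEF levels exceeded only 2.94% to 5.18% of probe sets.

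Counted by the leading probe set, 1 of the 6 genes (Hsd3b7) rose and 0 fell in iHepSCs against MEF, where 13% of all 45037 probe sets tested were called higher and 9.76% lower. The members are counted by gene and this background by probe set. A fit of the leading probe sets of 18193 genes alone called 18.2% higher and 13.4% lower. It called 14.8% and 15.5% in pHep against MEF, and 9.26% and 7.89% in iHepSCs against pHep. In iHepSCs against MEF the count of members is near both backgrounds. Their median difference was 0.15, against -0.00 over all probe sets. Of the 6 genes, 5 were higher in pHep than in MEF and 0 were lower, with a median of 3.32, where 15.4% of probe sets were called higher and 12.3% lower, with a median of -0.10. iHepSCs had 0 of the 6 genes above pHep and 4 below it (Baat, Slc27a5, Slc27a2 and Akr1d1), with a median of -2.44, where 6.48% of probe sets were called higher and 9.13% lower, with a median of 0.10. At an unadjusted p under 0.05 the limma fit gave the same counts of members in all 3 comparisons. Both pHep comparisons share the pHep array, and both comparisons with MEF share the MEF arrays. Without MEF replicate 1 the counts were 2 higher of 6 in iHepSCs against MEF (24.4% of probe sets), 6 higher in pHep against MEF (25.4%) and 5 lower in iHepSCs against pHep (18.2%), since Amacr joined each of them. By the methods' t-test with Benjamini-Hochberg adjustment, 0 of the 6 genes were lower in iHepSCs than in pHep (0.864% of probe sets), where 2 arrays are set against 1, and 4 were lower before adjustment.

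**Figure D3:**
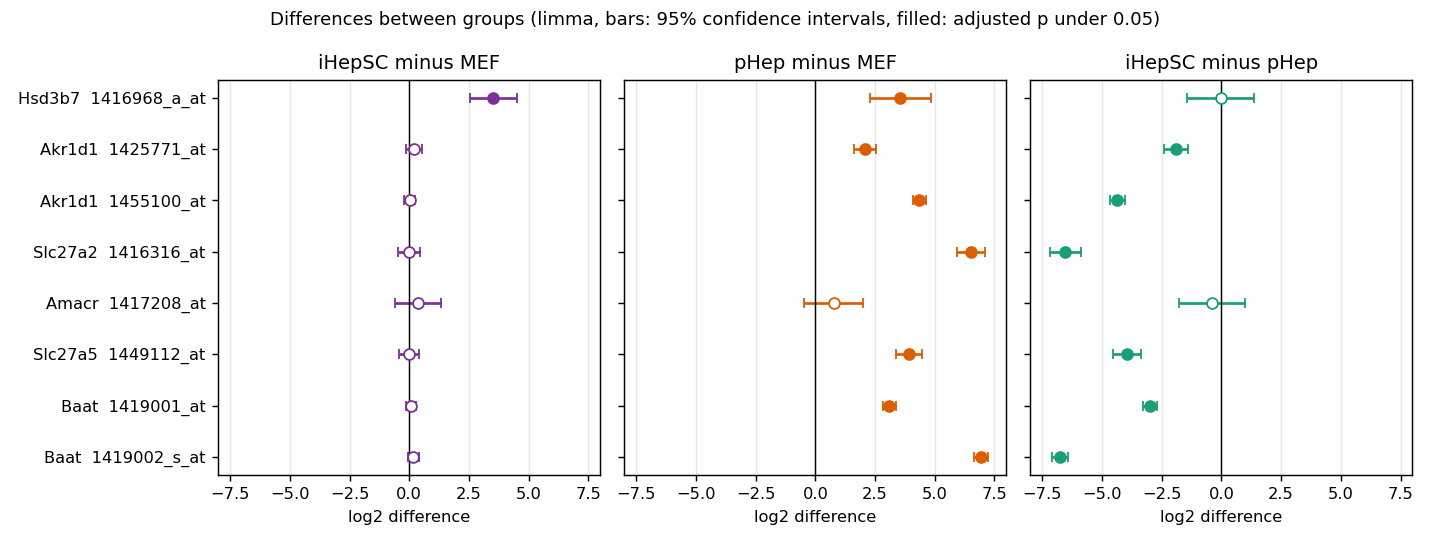
Log2 differences (x axis) with 95% confidence intervals for the 8 probe sets, for iHepSC minus MEF, pHep minus MEF and iHepSC minus pHep. Filled points have an adjusted p under 0.05 (limma, over 45037 probe sets). In iHepSC minus MEF the filled point is Hsd3b7 at 3.52, and in iHepSC minus pHep the open points are Hsd3b7 and Amacr.

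In these bulk samples, fewer cells of a type and less RNA per cell cannot be told apart. Markers of other cell types differed between the groups as well. For Kupffer cells and macrophages, 5 of 8 markers rose in pHep against MEF (C1qa, C1qb, Csf1r, Vsig4 and Marco). The other 3, Adgre1, Clec4f and Cd68, were not called, and Clec4f was at 6.08 in pHep, against 6.46 to 6.75 in MEF. The mean level of the 8 was 9.56 in pHep, 6.07 and 6.02 in iHepSCs (P20 and P3) and 6.62 to 7.41 in MEF. The 8 fibroblast markers had a mean level of 8.28 in pHep, 5.86 and 5.88 in iHepSCs and 11.74 to 12.93 in MEF. The part of these cells in the members' values was not tested.

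The members were compared between the passages as well. P20 minus P3 was -0.08 for Hsd3b7, -0.10 for Amacr, 0.18 for Slc27a5, 0.42 for Slc27a2, 0.09 and -0.15 for the probe sets of Baat and -0.15 and -0.02 for those of Akr1d1. Over all probe sets the median absolute difference between the passages was 0.12 and its 95th percentile 0.46, so each member lay within that percentile. There was 1 array per passage and thus no test. For Slc27a2, the member with the widest gap, the 4 MEF arrays spanned 0.54.

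The genes whose levels followed each member most closely over the 7 arrays are given as a description, since a single high pHep array sets most of these correlations. With Baat (1419001_at), the highest Pearson r were those of F13b, a subunit of a coagulation factor (0.9996), Trim30d (0.9995) and A2ml1 (0.9992), and 138 of 18193 genes exceeded 0.99. With Slc27a5 they were Hamp, the iron hormone hepcidin (0.998), Enpp3 (0.998) and Cpn2 (0.998), and 79 genes exceeded 0.99. With Slc27a2 they were Gpd1, a glycerol phosphate dehydrogenase (0.999), Pzp (0.999) and Gys2, the liver glycogen synthase (0.998), among 111 such genes. Each of these genes was higher on the pHep array than on any other group's mean, as in F13b, which was at 4.24 and 4.07 in iHepSCs and 9.05 in pHep, against a MEF mean of 4.05. Akr1d1 (1425771_at) had only 11 genes above 0.99, led by Sympk (0.999), Cyp2j6 (0.996) and Ms4a6b (0.994). Hsd3b7 had a different company, Rnpepl1 (0.999), Edem1, a factor of protein degradation in the endoplasmic reticulum (0.999), and Dsp, the desmosomal protein desmoplakin (0.998). Edem1 was at 12.24 and 12.30 in iHepSCs and 12.18 in pHep, against a MEF mean of 10.86. Amacr, whose group means spanned less than 1, was given no such list.

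The other genes of the pathway show where the members stand in it. Over all probe sets, 13% were called higher and 9.76% lower in iHepSCs against MEF, and 15.4% and 12.3% in pHep against MEF. These shares are the background for the counts against MEF of every gene list in this report, the markers included. The shares by gene are given above. Against MEF, 7 of 12 other enzymes and transfer proteins of bile acid synthesis were higher and 2 lower in iHepSCs (4 and 1 without the P20 array), and 7 were higher and 1 lower in pHep. Acox2, the peroxisomal oxidase that acts on the side chain after Amacr, was at 12.66 (P20) and 12.28 (P3) in iHepSCs and 11.27 in pHep, against 5.71 to 6.77 in MEF, a difference of 6.22 in iHepSCs (adjusted p = 4.35e-05) and 5.02 in pHep (adjusted p = 0.000327). Cyp27a1, which hydroxylates the side chain first, was at 11.70 and 11.35 in iHepSCs and 9.84 in pHep, against 6.01 to 6.21 in MEF. Its difference from MEF was 5.42 in iHepSCs (adjusted p = 3.48e-06) and 3.73 in pHep (adjusted p = 4.83e-05), and it was higher in iHepSCs than in pHep by 1.69 (adjusted p = 0.00215), or with adjusted p = 0.0584 where only these 2 groups were fitted. A second, dim probe set of Cyp27a1 differed by 0.05 between iHepSCs and MEF (adjusted p = 0.709). So the oxidases that act before and after Slc27a2 and Amacr on the side chain were higher in iHepSCs than in MEF, while Slc27a2 stayed within the range of the MEF arrays.

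Cyp39a1, an oxysterol hydroxylase, was higher in pHep by 6.47 (adjusted p = 0.00213) and in iHepSCs by 3.63 (adjusted p = 0.00785), the second of which was lost without the P20 array (adjusted p = 0.0883). Without MEF replicate 1, the Cyp39a1 difference of iHepSCs from MEF was 4.09 (limma, adjusted p = 3.51e-06). Ch25h, which makes an oxysterol, was lower than in MEF by both comparisons, with differences of -2.58 in iHepSCs (adjusted p = 0.00127) and -3.58 in pHep (adjusted p = 0.000977). Cyp7b1, a hydroxylase of oxysterols, was lower in iHepSCs, at -2.67 (adjusted p = 0.00566), and this call too was lost without the P20 array (adjusted p = 0.0667). Cyp7a1, which catalyses the rate-limiting step of the classic pathway, differed by -0.12 between iHepSCs and MEF (adjusted p = 0.421), or by 0.27 with arrays centred on Gapdh, and was higher in pHep by 0.94 (adjusted p = 0.00266), while its second probe set differed by 0.15 there (adjusted p = 0.462).

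For taurine supply and related conjugation, 3 of 7 genes were higher and 1 lower in iHepSCs than in MEF, and 4 were higher and 0 lower in pHep than in MEF (5 and 0 at an unadjusted p under 0.05). Without the P20 array, 1 was higher and 0 were lower in iHepSCs, and without the P3 array 0 were lower. In pHep, 2 were higher without MEF replicate 3, MEF replicate 4 or either iHepSC array. Acnat2, an acyltransferase of the same family as Baat, was higher in iHepSCs by 2.92 (adjusted p = 0.000159) and in pHep by 5.41 (adjusted p = 4.83e-05), while Baat differed by 0.17 and 0.09 between iHepSCs and MEF. Cdo1, cysteine dioxygenase, which feeds taurine synthesis, was at 5.30 (P20) and 5.44 (P3) in iHepSCs and 12.35 in pHep, against 10.40, 8.41, 8.41 and 8.37 in MEF. It was thus lower than in MEF on both iHepSC arrays and higher on the pHep array. Its difference from MEF was -3.52 in iHepSCs (adjusted p = 0.00962, with 0.076 without the P3 array and 0.0907 without the P20 array) and 3.45 in pHep (adjusted p = 0.0238, and 0.0581 to 0.0601 without any 1 of MEF replicates 2 to 4 or of the iHepSC arrays). Leaving out MEF replicate 1 gave -3.02 for Cdo1 in iHepSCs against MEF (limma, adjusted p = 2.43e-07). iHepSCs and pHep differed by -6.98 in Cdo1. Slc6a6, the taurine transporter, was higher in iHepSCs by 2.26 (adjusted p = 0.0412), which was lost without any 1 of 5 arrays (adjusted p = 0.107 to 0.238). Without MEF replicate 1, by contrast, the Slc6a6 difference in iHepSCs was 2.74 (limma, adjusted p = 1.14e-06). Glyat, the glycine N-acyltransferase of other acids, was higher in pHep by 5.87 (adjusted p = 1.09e-05), and 1 of its other probe sets gave 0.35 (adjusted p = 0.156).

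**Figure D4:**
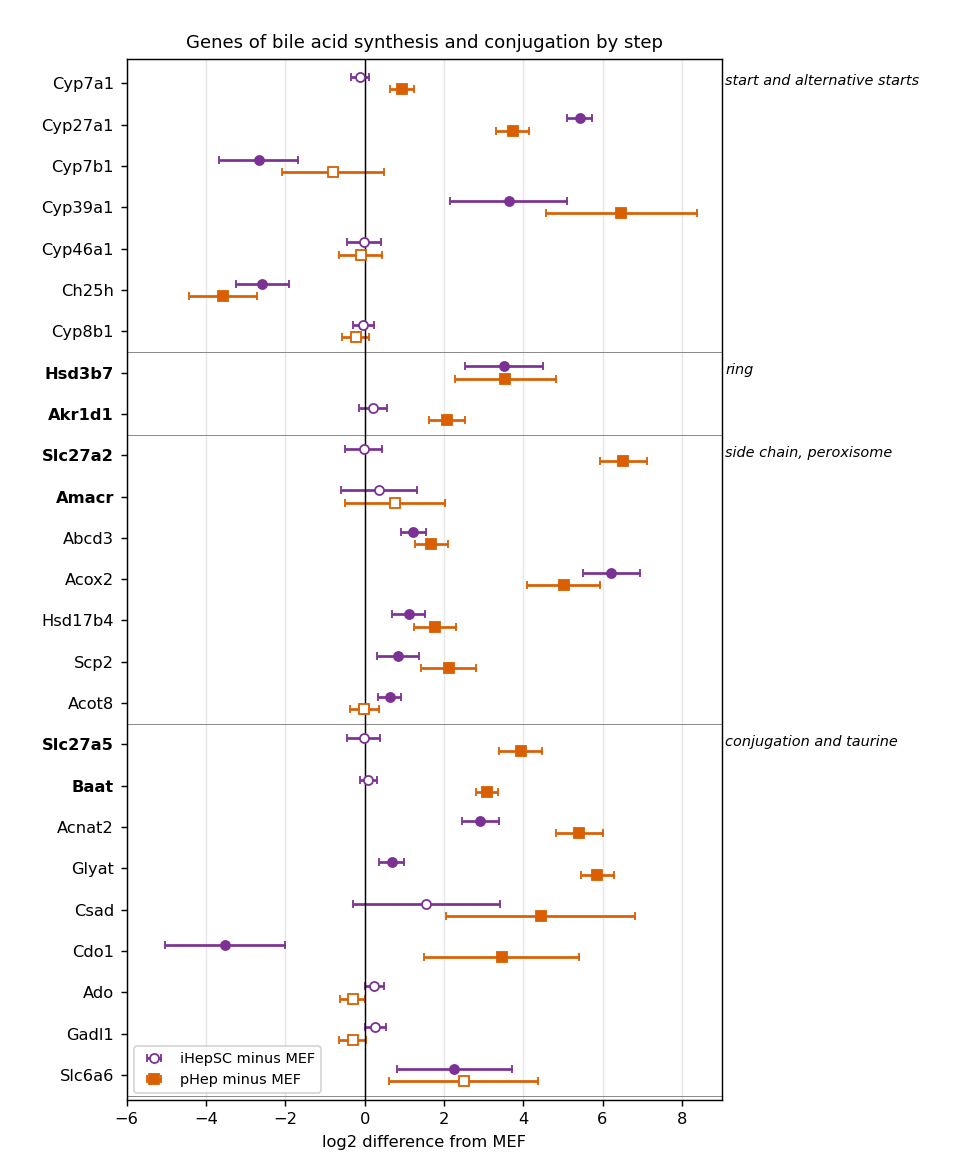
Log2 differences from MEF (x axis) with 95% confidence intervals for 25 genes of bile acid synthesis and conjugation, in order of their step, with the 6 genes described here in bold. Purple circles are iHepSC minus MEF, orange squares pHep minus MEF, and filled points have an adjusted p under 0.05. Cyp27a1, Acox2 and Hsd3b7 were higher in both, while Slc27a2, Slc27a5, Baat and Akr1d1 were higher in pHep.

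Of the other members of the Slc27 family, 3 were measured, and by limma 0 of 3 were called in either direction in pHep against MEF (also 0 at an unadjusted p under 0.05), where Slc27a2 and Slc27a5 were both higher. Without MEF replicate 1, 1 of the 3 was higher in pHep (Slc27a4, 0.34, adjusted p = 0.044) and 1 lower (Slc27a3, -0.91, adjusted p = 0.00237). Slc27a3 was lower in iHepSCs than in MEF, at -1.76 (adjusted p = 0.0444), a call lost without any 1 of 5 arrays (adjusted p = 0.0617 to 0.234). The same difference of Slc27a3 was -1.38 without MEF replicate 1 (limma, adjusted p = 8e-05). Among 9 other peroxisome genes, 3 were higher and 2 lower in iHepSCs (5 and 2 without MEF replicate 1), and 5 were higher and 1 lower in pHep. Ehhadh, the peroxisomal bifunctional enzyme of fatty acid oxidation, rose by 3.58 in iHepSCs (adjusted p = 0.000211) and 4.61 in pHep (adjusted p = 0.000242). Pex7, a receptor for peroxisomal import, rose by 1.72 in iHepSCs (adjusted p = 0.000479). Phyh, which starts the breakdown of phytanic acid, a substrate chain that also needs Amacr, was lower in iHepSCs, at -2.36 (adjusted p = 0.00267), and higher in pHep by 4.04 (adjusted p = 0.000855), so that iHepSCs and pHep differed by -6.40. Pex19, a chaperone of peroxisomal membrane proteins, was lower in both, at -1.04 in iHepSCs (adjusted p = 0.000455) and -0.56 in pHep (adjusted p = 0.014), although another of its probe sets rose by 2.40 in pHep (adjusted p = 0.0111).

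Among 12 bile acid transporters, 3 were higher and 1 lower in iHepSCs, and 8 were higher and 0 lower in pHep (8 and 1 at an unadjusted p under 0.05), each against MEF. Abcc3, which exports conjugated bile acids across the basolateral membrane, rose by 5.99 in iHepSCs (adjusted p = 3.28e-05) and 5.53 in pHep (adjusted p = 0.000149), and Abcc4, of the same side, rose by 2.31 in iHepSCs (adjusted p = 5.11e-05). Without MEF replicate 1, Abcc3 rose by 6.2 in iHepSCs (limma, adjusted p = 1.26e-08). Abcc2, a canalicular exporter, rose by 6.07 in pHep (adjusted p = 1.09e-05). Abcb4, the canalicular phospholipid transporter, fell by 0.38 in iHepSCs (adjusted p = 0.0332), a call lost without any 1 of MEF replicates 2 to 4 or of the iHepSC arrays (adjusted p = 0.0566 to 0.211), and its difference was 0.0090 when arrays were centred on Gapdh. Of 10 bile acid regulators, 5 were higher in iHepSCs and 6 in pHep, with 0 lower in either (1 in iHepSCs and 0 in pHep at an unadjusted p under 0.05, and 1 in each without MEF replicate 1). Nr1h4, the bile acid receptor FXR, rose by 5.09 in pHep (adjusted p = 0.000173) and 1.91 in iHepSCs (adjusted p = 0.00306). Nr1i2, the xenobiotic receptor PXR, rose by 2.54 in iHepSCs (adjusted p = 0.000349), and Hnf4a by 4.52 in iHepSCs (adjusted p = 2.6e-06) and 5.96 in pHep (adjusted p = 6.35e-06), although 1 of its 4 probe sets differed by 0.13 in iHepSCs (adjusted p = 0.473). Which of these probe sets also read the transduced Hnf4a was not checked, so transduced and endogenous Hnf4a were not told apart here. By the study's qPCR the transgene was silenced at P3 and P20.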

How the data were processed

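RNA of iHepSCs (2 arrays), pHep (1 array) and MEF (4 arrays) was measured on Affymetrix mouse genome arrays. The authors deposited log2 expression values per probe set from RMA, which corrects the background, equalises the arrays by quantile normalization and summarises each probe set. Its version is not given in the sources used here. Quantile normalization sets all arrays to a common distribution, so differences are relative to the other probe sets. No counts underlie array values, and the precision is limited by the number of arrays. No per-sample column was left unused.

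The members and the gene lists were chosen with earlier results of these data known. Probe sets were named from the array annotation (34945 with 1 symbol, 932 with several and 9160 with none). The 64 control probe sets were left out. Groups were compared over all 45037 others with the limma package (3.58.1, R 4.3.3) by lmFit and eBayes (no trend, a mean for each of 3 groups, 4 residual degrees of freedom, prior of 2.06 degrees of freedom and SD 0.156). P-values were adjusted by Benjamini-Hochberg, with a threshold of 0.05, and the same model was tested on simulated data. A gene was counted by its leading probe set, the one with the highest mean over the 7 arrays. Some genes of the lists are not reported here.

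Named genes were all members, up to 2 genes with the greatest rise and up to 2 with the greatest fall past the test of each pathway list in each comparison with MEF, the 3 genes most like each member over the 7 arrays, and Hnf4a and Pou5f1. Cyp7a1 in both comparisons with MEF, Cyp39a1 and Nr1h4 in iHepSC minus MEF, Cyp27a1, Cdo1, Slc27a3 and Slc27a4 in pHep minus MEF, and the values of Cyp27a1, Cdo1 and Phyh in iHepSC minus pHep were chosen after their values were seen, as were the motifs searched and the marker genes given by name. The levels of Fgfr4 were likewise chosen after they were seen. No list was tested as a set. The markers of cholangiocytes (3 higher and 1 lower of 5 in iHepSCs, 2 higher and 1 lower in pHep, each against MEF), liver endothelium (2 higher and 0 lower of 6 in iHepSCs, 0 higher and 1 lower in pHep) and stellate cells (0 higher and 2 lower of 5 in iHepSCs, 1 higher and 1 lower in pHep) were counted too. Alternatives were other rules for probe sets, filters, scalings, eBayes settings, leaving out each array, a replicate block and the methods' t-test. In centring on Gapdh, the array's control probe set for the 3′ end of Gapdh was used. Figures were drawn with Python 3.11.15 and matplotlib 3.10.9.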

Additional observations from a re-analysis of the deposited data

Results flagged for a closer look

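Of 30 named probe sets tested for a MEF array far from the other 3 (Dixon's ratio of the gap to the range, critical value 0.829 for 4 arrays), 5 passed, where chance gives about 1 in 20, or 1.5. In all 5 the array was MEF replicate 1, and its value was the highest. Amacr was at 9.48 on it (ratio 0.912), Cyp39a1 at 7.90 (0.889), Abcc3 at 6.91 (0.889), Slc6a6 at 12.64 (0.972) and Cdo1 at 10.40 (0.98). This array correlated with the other MEF arrays at 0.960 to 0.961, and its part in these values was not tested beyond leaving it out.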

How the results depend on the processing

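Leaving out each MEF array in turn gave 1 to 2 of the 6 genes higher in iHepSCs than in MEF. It gave 5 to 6 higher in pHep than in MEF and 4 to 5 lower in iHepSCs than in pHep. The pHep array is the only one of its group and could not be left out, so these counts do not show how far they depend on it. The count of 2 came without MEF replicate 1, as Amacr joined Hsd3b7. The shares of all probe sets called moved as well. Leaving out 1 MEF array gave 9.22% to 24.4% higher in iHepSC minus MEF and 12% to 25.4% higher in pHep minus MEF. In iHepSC minus pHep, 7.22% to 18.2% were lower. Without an iHepSC array the counts over all probe sets were smaller, as given below. By the methods' t-test after Benjamini-Hochberg adjustment, 0 genes were lower in iHepSCs than in pHep, where 1 residual degree of freedom is left. The median P20 minus P3 of the members was 0.01, and 0.24 when arrays were centred on Gapdh.

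Directions turned in members close to 0. Slc27a2 in iHepSC minus MEF (-0.02) was 0.0046 centred on the array median and 0.36 centred on Gapdh, and ran from -0.24 to 0.19 when single arrays were left out, being above 0 without MEF replicate 4 (0.069) or iHepSC P3. Slc27a5 (-0.02) was 0.0059 and 0.36 under the same centrings and ran from -0.12 to 0.064, being above 0 without MEF replicate 2, MEF replicate 3 or iHepSC P3. Akr1d1 (1455100_at) ran from -0.019 without MEF replicate 1 to 0.040. In iHepSC minus pHep, Hsd3b7 (-0.04) was 0.017 centred on the array median and 0.46 on Gapdh and ran from -0.074 to 0.0023, the last without iHepSC P20, and Amacr was 0.092 on Gapdh. Among other genes, Abcb4 and Cyp7a1 in iHepSC minus MEF were 0.0090 and 0.27 on Gapdh, and Pex19 in pHep minus MEF was 0.26 as a mean of its probe sets. Centring on Gapdh moved the median of all probe sets to 0.39 in iHepSC minus MEF, -0.21 in pHep minus MEF and 0.60 in iHepSC minus pHep. It made 80.5% of calls higher in iHepSC minus MEF (57% otherwise) and 77.1% in iHepSC minus pHep (41.5% otherwise), and with it Baat (1419002_s_at) passed in iHepSC minus MEF (0.56, adjusted p = 0.032). In iHepSC minus pHep, 54% of calls were higher in a table of genes.

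The replicate numbers of iHepSCs and MEF are taken as numbers only, since iHepSC replicates 1 and 2 are the P3 and P20 arrays. Same-numbered arrays deviated with r = -0.22 and -0.193. With 2 iHepSC arrays their deviations mirror each other, so these values cannot decide whether arrays were paired. With the replicate block, 0 of the 6 genes passed in iHepSC minus MEF, Hsd3b7 being at 3.25 (adjusted p = 0.0814), Slc27a2 was at 0.11, and 818 probe sets were called higher and 647 lower, against 5834 and 4394. No paired analysis was possible for pHep because it shares a single number with the other groups.

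Counts over all probe sets moved most without MEF replicate 1, to 10975 higher and 10475 lower in iHepSC minus MEF, 11440 and 12738 in pHep minus MEF (6947 and 5519 with it) and 8477 and 8218 in iHepSC minus pHep (2917 and 4113 with it). Without an iHepSC array they were as low as 2892 and 1961 in iHepSC minus MEF, and 1492 and 2371 in iHepSC minus pHep. By the methods' t-test after adjustment they were 4152 and 3082 in iHepSC minus MEF, 3295 and 2345 in pHep minus MEF, and 796 and 389 in iHepSC minus pHep.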
